A study of Mus musculus with 6 samples.

Results

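The transcripts of 10 genes that move cholesterol out of the cell or between its compartments were followed in mouse lung endothelial cells, the cells that line the vessels of the lung. The genes were chosen by symbol as Abca1, Abcg1, Scarb1, Nr1h2, Nr1h3, Apoe, Npc1, Npc2, Lrp1 and Soat1, and all 10 were found among the 23345 genes of the deposited table. All mice were C57BL/6JOlaHsd and had eaten either a high-fat diet (HFD) or a normal diet (ND) for 12 weeks, and the sources used here do not state their age or sex. The HFD group held 3 libraries, from mice 2, 4 and 5, and the ND group held 3 libraries, from mice 1, 3 and 4. Each library was made from 500 cells that had been depleted of CD16/CD32-positive cells, enriched with beads against ICAM-2 and replated on collagen I, so the values describe cells after a period in culture. Mouse 4 on HFD and mouse 4 on ND are different animals.

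Cells take cholesterol up in lipoproteins, release it in the lysosome, pass it to other membranes, store the excess as esters and export it to high-density lipoprotein (HDL). Excess cholesterol gives rise to oxysterols, which activate the liver X receptors (LXR), and these in turn switch on the genes of export. Endothelial cells meet lipoproteins directly in the blood, and export through ABCA1 and ABCG1 is known to affect their nitric oxide production and their inflammatory state.

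Depth was 18.8 to 27.9 M reads in the HFD libraries, against 13.8 to 17.2 M in the ND libraries, so every HFD library was deeper than every ND library. Values are normalized counts, that is reads divided by the size factor the authors gave each library, and 1 read was worth 0.720 to 1.19 normalized counts. The endothelial identity was clear in every library, since the 12 pan-endothelial markers summed to 167773 to 200439 normalized counts in HFD and 131017 to 168670 in ND. ND 3 stood apart in the 12 alveolar epithelial markers, which summed to 4759 to 19576 normalized counts in HFD and to 4130, 105516 and 7676 in ND 1, ND 3 and ND 4. Most of that came from Sftpc, a surfactant gene of alveolar type II cells, at 70918 normalized counts in ND 3. The highest HFD sum was that of HFD 5, mostly from Ager, another of these markers. Ager had 16933 normalized counts in HFD 5, against 3568 in HFD 2 and 3207 in HFD 4. In bulk samples, fewer cells of a type and less RNA per cell cannot be told apart.

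None of the 10 genes passed the test of HFD against ND. The test was limma on log2(normalized count + 1) for the 15655 genes whose mean reached 10 normalized counts, with Benjamini-Hochberg adjustment at 0.05. The adjusted p of the 10 genes ran from 0.638 for Nr1h2 to 0.989 for Npc2, and the share of all tested genes that passed was 0%. At an unadjusted p under 0.05 limma found 870 genes higher and 370 lower. Adjusted calls numbered 0 by edgeR, 0 by limma-voom and 272 by DESeq2 (1.74%), of which 0 were among the 10. Of the 10 genes, 0 were higher and 0 lower at that unadjusted p by limma, where 5.56% of all tested genes were higher and 2.36% lower. By the other tools, unadjusted p was under 0.05 for Nr1h2 (0.0381 by limma-voom, 0.0496 by DESeq2) and Lrp1 (0.0447 by edgeR). The share of all tested genes under that p was not counted for these tools. The limma fold changes of the 10 genes were 5 above and 5 below 0, with a median of −0.017 on the log2 scale against 0.050 over all tested genes. Abcg1 and Nr1h2 were the 2 of 10 whose values did not overlap between the diets, both higher in HFD, where 8.12% of all tested genes were without overlap and higher. Without overlap and lower were 0 of 10, where 5.93% of all tested genes were.

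**Figure D1:**
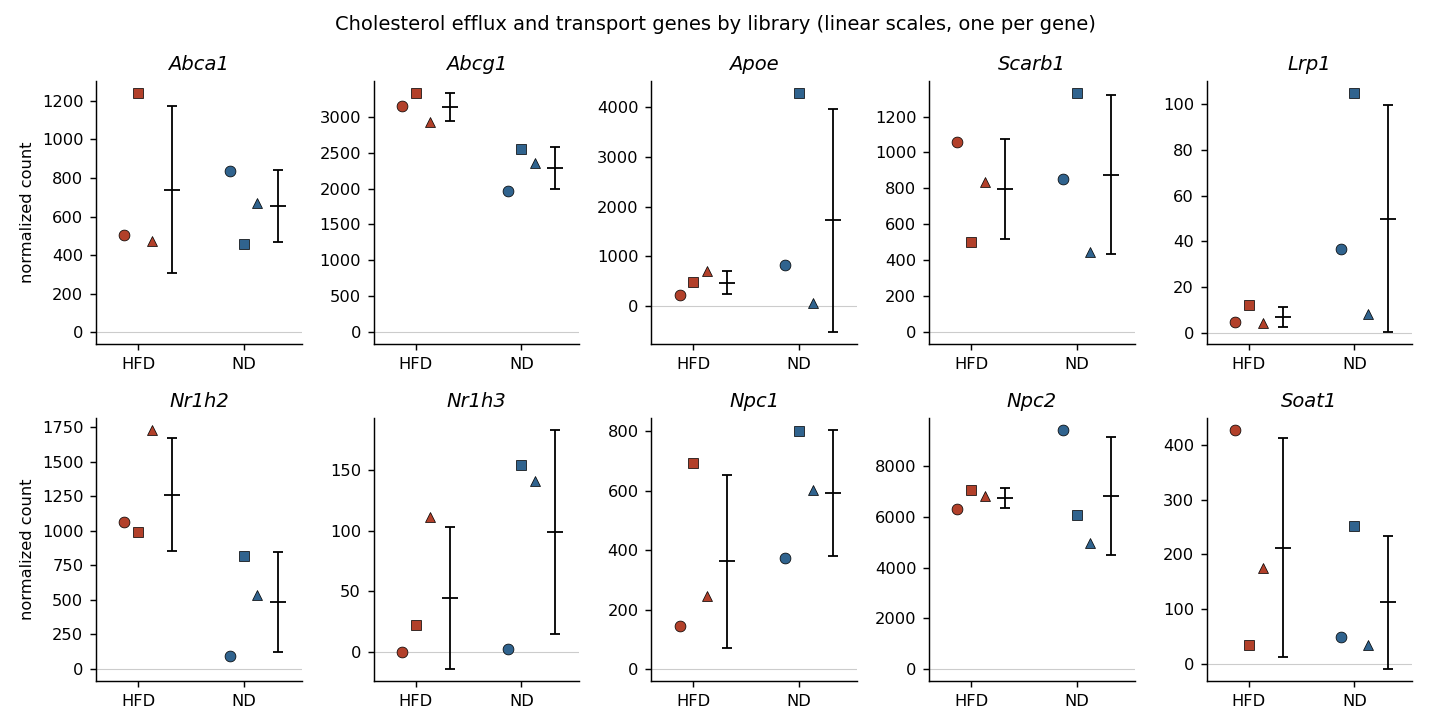
Normalized counts of the 10 genes in each library, HFD in red on the left and ND in blue on the right of each panel, on linear axes that differ between panels. Circles, squares and triangles are mice 2, 4 and 5 in HFD and mice 1, 3 and 4 in ND, and bars give the mean and SD of 3 libraries. Abcg1 and Nr1h2 separate the diets, while the other 8 genes overlap.

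ABCG1, encoded by Abcg1, is a half-transporter that moves cholesterol to mature HDL particles. Abcg1 had 3145, 3323 and 2928 normalized counts in HFD 2, HFD 4 and HFD 5, against 1971, 2545 and 2359 in ND 1, ND 3 and ND 4. In normalized counts the diets did not overlap, and the lowest HFD value was 1.15 times the highest ND value. The means were 3132 ± 198 in HFD and 2292 ± 293 in ND (SD, n = 3 each). The log2 fold change was 0.46 ± 0.23 (SE), with a 95% interval of −0.084 to 0.997 and a limma adjusted p of 0.658. It was 0.35 to 0.54 when 1 library was left out, and 0.34 with equal column totals in place of the size factors. On equal totals Abcg1 overlapped between the diets, as HFD 5 (4066 of 27.9 M reads) fell below ND 3 (2381 of 14.5 M). The 12 pan-endothelial markers had a median log2 fold change of 0.38, with 4 without overlap and higher and 1 lower. Over all tested genes, 8.12% were without overlap and higher and 5.93% lower. The part of the endothelial markers in the Abcg1 value was not tested. Within a diet Abcg1 was the most even of the 10 genes, with an SD of 0.15 log2 units, against 0.34 for Npc2, the next, and 3.32 for Nr1h3, the most uneven. The median SD over all tested genes was 0.81. Abcg1 and Npc2 also had the highest means of the 10 genes, 2712 and 6777 normalized counts, against 71.9 for Nr1h3. The SD was not compared with genes of like level. By the GENCODE M21 annotation of GRCm38, Abcg1 lies on chromosome 17 from 31057675 to 31117988.

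ABCA1, encoded by Abca1, loads cholesterol and phospholipid onto lipid-poor apolipoprotein A-I and so starts an HDL particle. Abca1 had 505, 1241 and 474 normalized counts in HFD 2, HFD 4 and HFD 5, against 835, 460 and 670 in ND 1, ND 3 and ND 4. HFD 4 was the highest of all libraries, and the other HFD libraries lay within the ND range. HFD minus ND was 0.069 ± 0.50 on the log2 scale, with a 95% interval of −1.10 to 1.23 and a limma adjusted p of 0.986, and it was −0.38 without HFD 4 and −0.16 without ND 3. Abca1 lies on chromosome 4 from 53030787 to 53159895.

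The start of Abca1 is shown because it carries the element through which LXR is known to act on this gene. The stretch is the 150 bases before the RefSeq start in GRCm38.p6, on the minus strand at chr4:53159896-53160045. Capitals mark first an E-box, CACGTG, and then an LXR half-site pair, searched as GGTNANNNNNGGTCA on both strands and found here on the opposite strand to the gene. The pair lies 67 to 53 bases before the start and the E-box 147 to 142 bases before it.
Abca1: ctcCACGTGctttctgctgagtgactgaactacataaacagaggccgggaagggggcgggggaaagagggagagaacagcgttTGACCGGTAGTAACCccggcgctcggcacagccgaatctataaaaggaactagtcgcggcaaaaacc
Of 32851 promoter sequences, some genes having several, 0.177% held the half-site pair within 250 bases before the start and 6.02% held the E-box. Of the 10 genes, 7 had a promoter sequence (Abca1, Nr1h2, Nr1h3, Apoe, Npc2, Lrp1 and Soat1), and Abca1 was the single one of these with the pair. The sterol regulatory element, searched as TCACNCCAC, was in 1.05% of the promoter sequences and in 0 of the 7. A match is a description of the letters, not of a bound site. As the element of Abca1 was already known, its match is not a finding. The search covered only the 250 bases before the start, so it cannot tell whether the other genes carry the pair elsewhere.

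The gene whose level followed Abca1 most closely over the 6 libraries was Mylip, which encodes an LXR-induced ubiquitin ligase that lowers lipoprotein uptake. It was ranked by Pearson r of log2 values among 5367 genes whose mean reached 500 normalized counts, with r = 0.96, and the next were Bloc1s6, a subunit of a complex of endosome sorting, with r = 0.95 and Commd8, a subunit of the Commander endosome complex, with r = 0.95 (n = 6 libraries each, Spearman's rho 0.829, 0.943 and 1). These were picked as the highest of many genes over few libraries and are given as a description without a test. Without HFD 4 and ND 1, the libraries farthest from the Abca1 median, r was 0.80, 0.71 and 0.78. Over all 6 libraries, r of Abca1 was 0.02 with Abcg1, −0.37 with Nr1h2 and −0.19 with Nr1h3. Mylip had 801, 1446 and 671 normalized counts in HFD 2, HFD 4 and HFD 5, against 1117, 835 and 1005 in ND 1, ND 3 and ND 4. As for Abca1, HFD 4 was the highest library, and HFD 5 was the lowest for Mylip and next to lowest for Abca1, and the log2 fold change between the diets was −0.090 ± 0.39 with a limma adjusted p of 0.974.

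Soat1 encodes the acyltransferase of the endoplasmic reticulum that turns free cholesterol into storable esters. Soat1 had 428, 33.8 and 176 normalized counts in HFD 2, HFD 4 and HFD 5, against 49.6, 252 and 34.4 in ND 1, ND 3 and ND 4. The 3 libraries with most Soat1, HFD 2, ND 3 and HFD 5, were the 3 with least Abca1. This pair was picked after its values were seen, as the one with the lowest Pearson r of log2 values among the 45 pairs of the 10 genes (r = −0.82 over 6 libraries), and is a description. The 10 fibroblast markers had a mean log2 level of 8.24, 3.71 and 5.34 in HFD and 6.28, 7.31 and 4.74 in ND. As for Soat1, HFD 2 and ND 3 were the highest and HFD 4 and ND 4 the lowest, and the part of fibroblasts in the Soat1 values was not tested. The log2 ratio of Abca1 to Soat1, taken within each library and compared only across libraries, was 0.24, 5.16 and 1.43 in HFD and 4.05, 0.86 and 4.24 in ND. The ratio thus varied within both diets. Its mean was 2.27 ± 2.57 in HFD and 3.05 ± 1.90 in ND (SD, n = 3 each), a difference smaller than the spread (exact two-sided permutation p = 0.9). Soat1 alone had a log2 fold change of 0.85 ± 1.15 with a limma adjusted p of 0.889, which was 0.029 without HFD 2 and 1.84 without HFD 4, so single libraries set its size. It lies on chromosome 1 from 156424525 to 156474331.

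**Figure D2:**
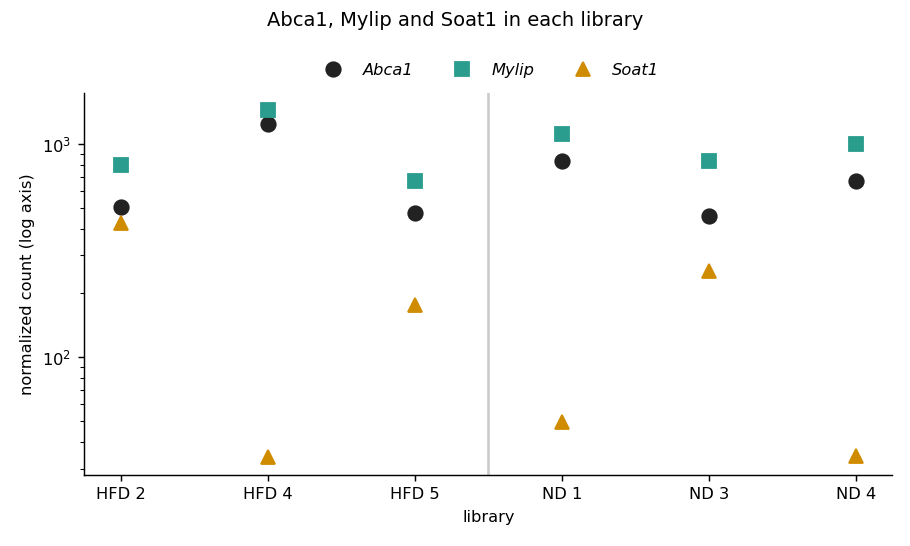
Normalized counts on a log axis of Abca1, Mylip and Soat1 in each of the 3 HFD libraries (left of the line) and 3 ND libraries (right). In HFD 4 Abca1 (1241) and Mylip (1446) are highest and Soat1 (33.8) lowest, and Soat1 is highest in HFD 2 (428) and ND 3 (252).

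The nuclear receptors differed in their level and in their spread. Nr1h2 encodes LXRβ, the form found in most tissues, and Nr1h3 encodes LXRα, the form typical of liver, fat and macrophages. Nr1h2 had 1062, 990 and 1731 normalized counts in HFD 2, HFD 4 and HFD 5, against 96.8, 819 and 533 in ND 1, ND 3 and ND 4. All HFD values were above all ND values, and the ND libraries spread 8.46-fold. The means were 1261 ± 409 in HFD and 483 ± 364 in ND (SD, n = 3 each). The log2 fold change was 1.80 ± 0.79, the highest of the 10 genes, with a 95% interval of −0.051 to 3.66 and a limma adjusted p of 0.638. ND 1 had a large part in that value, as it was 0.88 without ND 1 and 2.42 without ND 3. On whole reads, the log2 fold change was 1.29 by both edgeR and DESeq2, at adjusted p = 0.623 and 0.432. Nr1h2 lies on chromosome 7 from 44549616 to 44553951.

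Nr1h3 had 0, 22.5 and 111 normalized counts in HFD 2, HFD 4 and HFD 5, against 2.36, 154 and 141 in ND 1, ND 3 and ND 4. The 0 reads in HFD 2 allow a level of up to 2.91 normalized counts, where PCR reads without molecular identifiers make this a limit on counting error only. One library of each diet was at or near 0 and the diets overlapped. Its log2 fold change was −1.60 ± 2.15, with a limma adjusted p of 0.888, and 0.29 without HFD 2 and −3.43 without ND 1, so its direction was not determined by these libraries. On a per-length scale, with the normalized count divided by kb of exonic sequence, Nr1h2 had 317, 295 and 516 per kb in HFD and 28.9, 244 and 159 in ND. Nr1h3 had 0, 8.97 and 44.1 per kb in HFD and 0.939, 61.2 and 56.2 in ND. Nr1h2 was above Nr1h3 in all 6 libraries on that scale. Nr1h3 lies on chromosome 2 from 91184061 to 91202834, and 1.35% of its exonic bases overlap another gene.

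The start of Nr1h2 is shown because this gene had the highest fold change of the 10 and because its letters repeat 1 short motif, which was searched for after the sequence had been seen. The stretch is the 180 bases before the RefSeq start in GRCm38.p6, on the minus strand at chr7:44553966-44554145, and capitals mark CCGGAA on either strand, the core bound by ETS factors, a family that includes the endothelial factor ERG.
Nr1h2: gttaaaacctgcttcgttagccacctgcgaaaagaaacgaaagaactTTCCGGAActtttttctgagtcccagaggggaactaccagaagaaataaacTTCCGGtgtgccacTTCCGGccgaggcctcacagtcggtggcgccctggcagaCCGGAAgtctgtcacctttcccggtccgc
The core begins at 5 positions, the first 2 of which overlap as a palindrome. It occurred at least once before the start in 12.0% of the 32851 promoter sequences and at 5 or more positions in 0.0213%. Nr1h3 and Npc2 had 1 position each, and Abca1, Apoe, Lrp1 and Soat1 had 0.

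Apolipoprotein E and the receptors that bind lipoproteins overlapped between the diets. Apoe encodes the apolipoprotein that macrophages and other cells secrete to take up exported cholesterol. Apoe had 232, 490 and 708 normalized counts in HFD 2, HFD 4 and HFD 5, against 818, 4280 and 72.5 in ND 1, ND 3 and ND 4. The ND libraries held both the highest and the lowest value and spread 59.1-fold. The means were 477 ± 238 in HFD and 1723 ± 2245 in ND (SD, n = 3 each), and the ND mean was 445 without ND 3. Its log2 fold change was −0.56 ± 1.36, with a limma adjusted p of 0.949, and it was 0.82 without ND 3 and −2.11 without ND 4. On whole reads, the log2 fold change was −1.94 by edgeR and −1.95 by DESeq2, at adjusted p = 0.670 and 0.668, and −0.61 by limma-voom. Its size thus depends on the tool. Apoe lies on chromosome 7 from 19696109 to 19699188.

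Lrp1 encodes a large endocytic receptor that takes up apolipoprotein E particles and many other ligands. Lrp1 had 4.86, 12.1 and 4.32 normalized counts in HFD 2, HFD 4 and HFD 5, against 36.6, 105 and 8.32 in ND 1, ND 3 and ND 4. These were 5, 15 and 6 reads in HFD and 31, 98 and 7 reads in ND, so the values carry wide counting error. The HFD values were among the lowest, with ND 4 between them. A log2 fold change of −2.17 ± 1.14 was found, with a 95% interval of −4.85 to 0.51 and a limma adjusted p of 0.666, and it was −1.34 without ND 3 and −3.09 without ND 4. Lrp1 lies on chromosome 10 from 127538161 to 127621148.

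Markers of other lung cell types were measured beside Apoe and Lrp1. The 8 macrophage markers found in the table summed to 1683, 1682 and 3137 normalized counts in HFD and 1413, 7836 and 2085 in ND. The ND 3 sum was mostly Lyz2, a lysozyme of macrophages and type II cells, which had 74.8, 0 and 181 in HFD and 0, 6388 and 41.6 in ND. Of the other macrophage markers, Csf1r, a growth factor receptor, was also highest of all 6 libraries in ND 3, at 128, and the rest were not. Cd68, a lysosomal protein of macrophages, had 131, 118 and 0.720 in HFD and 164, 15.0 and 127 in ND, and Mrc1, a mannose receptor, had 4.86, 9.66 and 191 in HFD and 350, 7.48 and 462 in ND. Chil3, a secreted protein of alveolar macrophages, had 0 to 0.971 in HFD and 0, 2.14 and 150 in ND, and C1qc, a complement gene, had 0 to 9.50 everywhere. Mertk, which made up most of the sum in the other libraries, had 895 to 2376. The 11 mural markers summed to 808, 1446 and 1117 in HFD and 3647, 6295 and 1269 in ND, and the 10 fibroblast markers to 5676, 1487 and 1516 in HFD and 3808, 7719 and 975.3 in ND. In ND, Apoe, Lrp1 and the mural and fibroblast sums had the same order, with ND 3 first and ND 4 last, while the macrophage and alveolar sums were lowest in ND 1. In HFD that order was not shared. The highest library was HFD 5 for Apoe, HFD 4 for Lrp1 and the mural sum, and HFD 2 for the fibroblast sum. Single markers weighed heavily in ND 3, namely Acta2 (1724, 3642 and 0 in ND) among mural and Dcn (174, 3286 and 21.4) among fibroblast markers. Pdgfrb, another mural marker, had 321, 5.35 and 28.5 in ND. The part of these cells in the values of Apoe and Lrp1 was not tested.

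**Figure D3:**
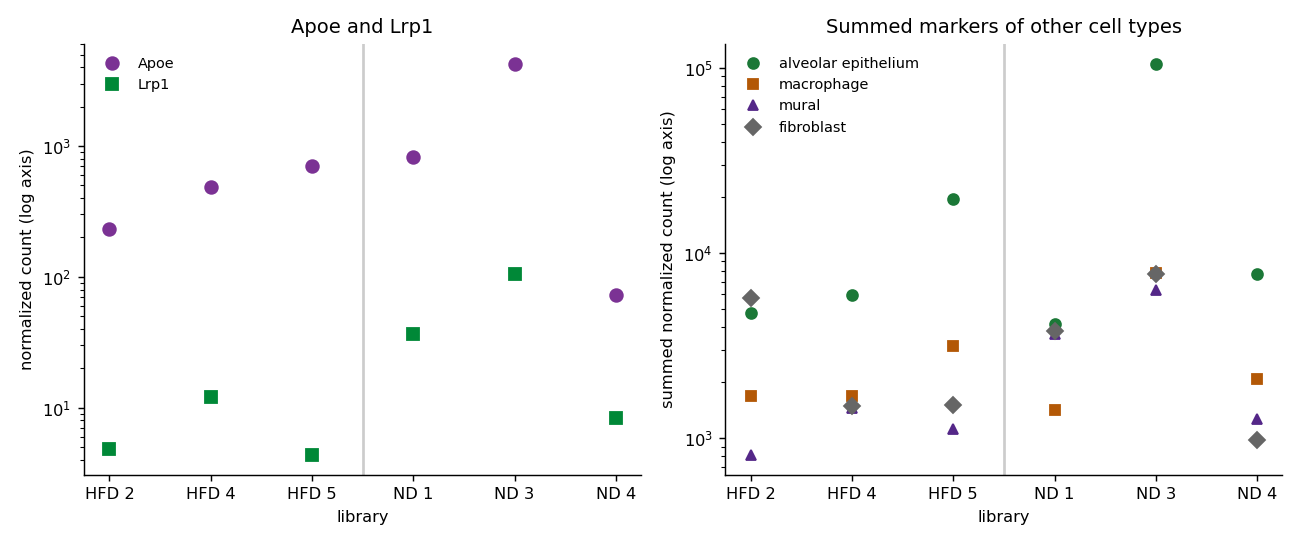
Left, normalized counts of Apoe and Lrp1 on a log axis in each library, HFD left of the line and ND right. Right, the summed normalized counts of markers of 4 other cell types in the same libraries; ND 3 is highest for Apoe (4280), for Lrp1 (105) and for all 4 marker sums, where Lyz2 (6388) gives most of the macrophage sum (7836).

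Scarb1 encodes scavenger receptor class B type 1, which exchanges cholesterol with HDL and carries LDL across endothelium. Scarb1 had 1056, 504 and 834 normalized counts in HFD 2, HFD 4 and HFD 5, against 852, 1331 and 447 in ND 1, ND 3 and ND 4. The diets covered nearly the same range. HFD minus ND was −0.063 ± 0.51 on the log2 scale, with a 95% interval of −1.26 to 1.14 and a limma adjusted p of 0.988, and it was 0.24 without HFD 4 and 0.31 without ND 3. Scarb1 lies on chromosome 5 from 125277087 to 125341094.

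The lysosomal pair came next in the path of cholesterol through the cell. NPC2 is a soluble lysosomal protein that picks up released cholesterol and hands it to NPC1, which passes it through the lysosomal membrane, and loss of either causes Niemann-Pick disease type C. Npc2 had 6289, 7065 and 6820 normalized counts in HFD 2, HFD 4 and HFD 5, against 9436, 6076 and 4976 in ND 1, ND 3 and ND 4. The HFD values were close together and lay inside the ND range. HFD minus ND was 0.029 ± 0.26 on the log2 scale, with a 95% interval of −0.59 to 0.65 and a limma adjusted p of 0.989, and its sign changed with the scaling and with the library left out. Npc1 had 146, 693 and 246 normalized counts in HFD 2, HFD 4 and HFD 5, against 374, 800 and 602 in ND 1, ND 3 and ND 4. HFD 2 and HFD 5 lay below all ND libraries and HFD 4 within them. The log2 fold change of Npc1 was −0.95 ± 0.65, with a 95% interval of −2.49 to 0.59 and a limma adjusted p of 0.747, and it stayed negative when any 1 library was left out (−1.57 to −0.45). The log2 ratio of Npc2 to Npc1 averaged 4.52 ± 1.06 in HFD and 3.54 ± 0.96 in ND (SD, n = 3 each, exact two-sided permutation p = 0.2, where 3 against 3 cannot go below 0.1). Npc2 lies on chromosome 12 from 84754562 to 84773152 and Npc1 on chromosome 18 from 12189692 to 12236400, with 5.31% of Npc1 exonic bases shared with other genes.

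**Figure D4:**
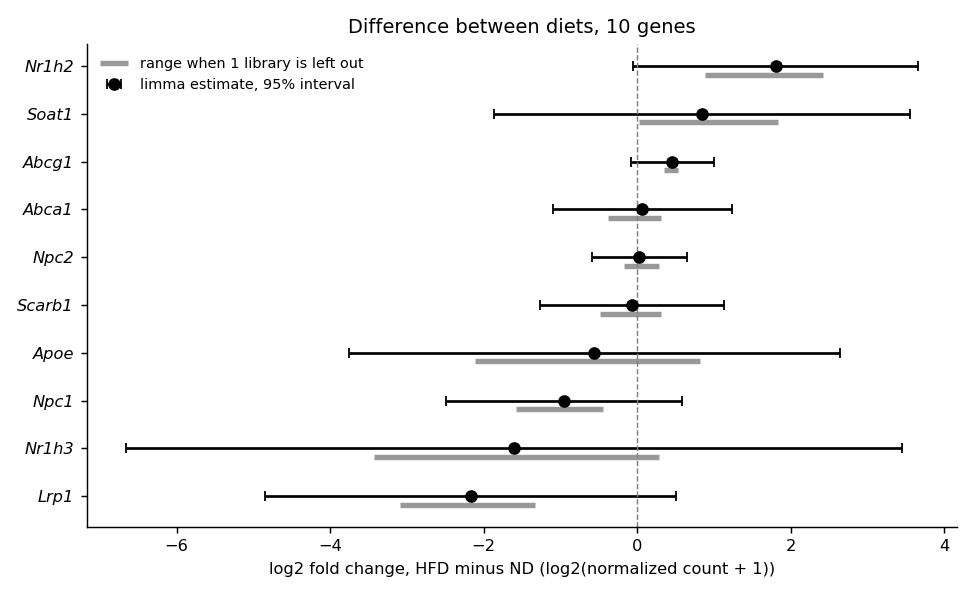
Log2 fold change of HFD minus ND for the 10 genes, with black points for the limma estimate, black bars for its 95% interval and grey bars for the range over the 6 fits that each leave out 1 library. All intervals include 0; Nr1h2 (1.80) is at the top and Lrp1 (−2.17) at the bottom.

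Per kb of exonic sequence, Npc2 was the most abundant of the 10 transcripts in 5 of 6 libraries, with a median of 1205 normalized counts per kb. Apoe was first in ND 3, at 2002 per kb. By the median over the 6 libraries Abcg1 came next at 375, then Apoe at 280, Nr1h2 at 270, Scarb1 at 99.1, Abca1 at 56.7, Npc1 at 43.2, Nr1h3 at 26.5, Soat1 at 11.5 and Lrp1 at 0.576. The ranges over the 6 libraries overlapped for every pair of neighbours in this order except Npc2, at 915 to 1735 per kb, and Abcg1, at 270 to 455. Compared within each library, Soat1 also lay above Lrp1 in all 6, and the remaining neighbours changed order between libraries. Abcg1 lay above Abca1 in all 6 libraries. Abcg1 per kb averaged 429 ± 27.1 in HFD and 314 ± 40.2 in ND, and Abca1 71.4 ± 41.9 in HFD and 63.2 ± 18.2 in ND (SD, n = 3 each). Lrp1 was last in 4 of 6 libraries, the exceptions being HFD 2 and ND 1, where Nr1h3 was last with 0 and 2 reads. Lengths were the union of all annotated exons, 17.7 kb for Lrp1 and 2.14 kb for Apoe. With the length of the principal transcript instead, a scale chosen after the data had been seen, Nr1h2 came before Apoe and Npc1 before Abca1, and 5 medians moved by over 1.5 times, to 1987 per kb for Npc2, 452 for Nr1h2, 426 for Apoe, 334 for Scarb1 and 93.5 for Npc1.

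The other genes of the pathway were taken from 9 lists, in which 0 genes passed limma over all genes in either direction. Uptake genes around Lrp1 held the single named gene that any tool called. Lrpap1 encodes the chaperone of the endoplasmic reticulum that keeps LRP1 and its relatives from binding ligands too early. Lrpap1 had 4639, 5745 and 5984 normalized counts in HFD 2, HFD 4 and HFD 5, against 2916, 2520 and 2099 in ND 1, ND 3 and ND 4. All HFD libraries lay above all ND libraries, by at least 1.59 times. The log2 fold change was 1.12 ± 0.23 and stayed between 1.00 and 1.24 when 1 library was left out. It did not pass limma over all genes (adjusted p = 0.378) or edgeR (0.490), and passed DESeq2 at adjusted p = 0.00826, which called 1.74% of all tested genes. Lrp4, a receptor of the same family, averaged 468 ± 125 normalized counts in HFD and 204 ± 48.9 in ND, without overlap (log2 fold change 1.18 ± 0.45, limma adjusted p = 0.581). Acvrl1, a receptor kinase that also binds LDL on endothelium, averaged 8765 ± 1733 in HFD and 6188 ± 2029 in ND with overlap. Of 14 tested genes in this list, 8 were above and 6 below a fold change of 0 and 2 were without overlap and higher, namely Lrpap1 and Lrp4, where 8.12% of all tested genes were.

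Partners and other targets of LXR lay on both sides of 0. Of 14 tested, 8 were above and 6 below 0, with a median log2 fold change of 0.089, 1 without overlap and higher and 2 without overlap and lower, where 8.12% of all tested genes were without overlap and higher and 5.93% lower. Lpcat3, which builds polyunsaturated phospholipids, had 1201, 1607 and 3049 normalized counts in HFD and 744, 1043 and 835 in ND (log2 fold change 1.06 ± 0.41, limma adjusted p = 0.581). Scd2, a fatty acid desaturase, had 881, 767 and 1488 in HFD and 1570, 3968 and 2113 in ND (−1.24 ± 0.44, limma adjusted p = 0.570). Both of these genes are known LXR targets, and they stood on opposite sides of 0. Abca5, a lysosomal ABC transporter, averaged 38.6 ± 26.1 in HFD and 192 ± 112 in ND, without overlap (−2.47 ± 0.89, limma adjusted p = 0.570).

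Of the enzymes that make or break down oxysterols, 0 of 6 tested passed the test. Ch25h, which makes the LXR ligand 25-hydroxycholesterol, had 1216, 798 and 828 normalized counts in HFD and 788, 615 and 498 in ND. The diets did not overlap, but HFD 4 and ND 1 differed by 1.01 times, and the log2 fold change was 0.58 ± 0.36 with a limma adjusted p of 0.723. Of the 6 genes 5 were above 0, with a median log2 fold change of 1.14, and 1 was without overlap and higher, where 8.12% of all tested genes were. Cyp7b1, a hydroxylase that leads oxysterols towards bile acids, had 14.6, 84.6 and 23.0 in HFD and 0, 1.07 and 24.9 in ND, and Cyp39a1, another of that kind, had 166, 183 and 493 in HFD and 3.54, 522 and 1.19 in ND. In ND these were 0, 1 and 21 reads for Cyp7b1 and 3, 488 and 1 for Cyp39a1. The log2 fold change of Cyp39a1 was 3.84 by limma and 0.56 by both edgeR and DESeq2. For Cyp7b1 it was 3.07 by limma and 2.17 by both, so the median of the 6 includes genes whose size depends on the tool. Cyp27a1, which makes 27-hydroxycholesterol and was looked at after its values were seen, had 3.88, 179 and 1.44 in HFD and 1.18, 7.48 and 2.38 in ND. Its log2 fold change of 1.70 rested on HFD 4 and was −0.20 without that library.

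Genes of lysosomal release other than Npc1 and Npc2 were above 0 in 9 of 11 tested, with a median log2 fold change of 0.25 and 2 without overlap and higher, where 8.12% of all tested genes were. Mcoln1, a lysosomal calcium channel, had 536, 958 and 666 normalized counts in HFD and 154, 226 and 400 in ND (log2 fold change 1.54 ± 0.50, limma adjusted p = 0.554). Pgrmc1, a haem and sterol binding membrane protein, had 5667, 4294 and 7217 in HFD and 3489, 3978 and 2667 in ND (0.75 ± 0.28, limma adjusted p = 0.574).

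Carriers that move sterol at membrane contacts split evenly, with 10 of 20 tested above 0 and 10 below, and 3 without overlap in each direction, where 8.12% of all tested genes were without overlap and higher and 5.93% lower. Vapb, the membrane anchor of the endoplasmic reticulum that these carriers dock on, had 750, 1148 and 1663 normalized counts in HFD and 211, 361 and 523 in ND (log2 fold change 1.72 ± 0.49, limma adjusted p = 0.509). Osbp, the founding oxysterol-binding protein, which docks on that anchor, had 103, 273 and 40.3 in HFD and 298, 332 and 735 in ND (−1.99 ± 0.79, limma adjusted p = 0.592). Osbpl7, a relative, averaged 14.2 ± 13.9 in HFD and 89.4 ± 81.0 in ND, also without overlap.

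Other transporters, ester enzymes and HDL genes were described in the same way. Of 12 tested ABC lipid transporters 4 were above and 8 below 0. Abcc1, a transporter of glutathione conjugates and lipids, had 124, 313 and 105 normalized counts in HFD and 330, 340 and 447 in ND (log2 fold change −1.20 ± 0.56, limma adjusted p = 0.644), and Abca2, a transporter of late endosomes, had 149, 3.22 and 1.44 in HFD and 133, 191 and 140 in ND. Of 5 tested genes of ester formation and hydrolysis 2 were above 0. Among these Lipe, a hydrolase of cholesterol esters and acylglycerols, averaged 333 ± 88.5 in HFD and 165 ± 125 in ND, and Ces1d 147 ± 86.1 in HFD and 361 ± 303 in ND. Acat2, at 234 ± 298 in HFD and 263 ± 91.4 in ND, encodes a cytosolic thiolase and not an esterifying enzyme, despite its name. It was nevertheless among the 5 genes counted, and it lay below 0 (log2 fold change −0.98). Of 6 tested genes of HDL and apolipoproteins 4 were above 0. Lpl, lipoprotein lipase, had 2797, 2089 and 2169 in HFD and 713, 1851 and 935 in ND, without overlap (1.12 ± 0.40, limma adjusted p = 0.570). Pltp, which remodels HDL, averaged 5066 ± 1720 in HFD and 2884 ± 1159 in ND, and Apod 20.4 ± 30.3 in HFD and 73.5 ± 59.6 in ND.

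The sterol-sensing genes, which answer to low cholesterol, were above 0 in 7 of 12, with a median log2 fold change of 0.15. Of the 12, 0 were without overlap, where 8.12% of all tested genes were higher and 5.93% lower without overlap. Srebf2, the factor of cholesterol synthesis and uptake, averaged 207 ± 12.7 normalized counts in HFD and 367 ± 278 in ND. Insig2, which retains the factor in the endoplasmic reticulum, averaged 1364 ± 514 in HFD and 938 ± 312 in ND, Mbtps1, which cleaves it, 1015 ± 251 in HFD and 740 ± 275 in ND, and Ubxn4 2759 ± 427 in HFD and 2341 ± 271 in ND (SD, n = 3 each).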

How the data were processed

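Messenger RNA of 6 libraries was copied from oligo(dT) primers with template switching and amplified by PCR, per the labels' protocols. The submitters' processing notes name GRCm38 and, with no role or order, DESeq2, HTSeq 0.6.1, SAMtools 0.1.19, Bowtie 1.0.0, TopHat2 2.0.10, FastQC 0.11.7 and cutadapt. Strand use in counting is not given in the sources used here. The authors deposited a normalized signal, in which the reads of a gene had been divided by 1 size factor for each library. All values (100%) were whole numbers of reads within 1e-06 once divided by the value of 1 read, so reads were recovered.

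HFD and ND were compared by limma 3.58.1 in R 4.3.3, two-sided, with an intensity trend and no covariates, on log2(value + 1), which understates changes of low genes. All 10 genes passed the minimum mean of 10. Alternatives were edgeR 4.0.16, DESeq2 1.42.0 and limma-voom on the reads, other pseudocounts, filters and scalings, and leaving out each library. The fits were also run on simulated counts with known fold changes. No simulated library was made to stand apart as ND 3 did, and the outcome is not given here. P-values measure the spread between these libraries, each from 1 mouse. The genes and lists were chosen with earlier results of these data known. Named were the 10 genes, Srebf2 and Mylip, the 3 of smallest p in each pathway list, and the 3 genes most like Abca1, and 3 genes that this rule named are not reported here. DESeq2 gave no adjusted p for Abca2 and Cyp39a1. Positions and lengths are from GENCODE M21, and promoter sequences from RefSeq on GRCm38.p6. The E-box and ETS motifs were added after the sequences had been seen. Columns of per-sample values left unmatched numbered 0.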

Additional observations from a re-analysis of the deposited data

How the results depend on the processing

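Of 159 values of the 10 genes under alternative settings, 144 kept their direction and their side of the threshold, 15 changed sign and 0 came to pass the threshold. With 1 library left out, the log2 fold change ran from −0.38 (without HFD 4) to 0.32 for Abca1, from −0.17 (without ND 4) to 0.29 for Npc2, from −2.11 to 0.82 (without ND 3) for Apoe, from −0.48 to 0.31 (without ND 3) for Scarb1 and from −3.43 to 0.29 (without HFD 2) for Nr1h3. It ran from −1.22 to 0.18 (without ND 3) for Srebf2 and from −0.42 to 0.14 (without HFD 5) for Mylip. Abca1 also changed sign under equal column totals (−0.047), and Npc2 under TMM scaling (−0.022), equal column totals (−0.088), edgeR (−0.063), DESeq2 (−0.089) and limma-voom (−0.026). Lrpap1 passed DESeq2 at a log2 fold change of 1.05. Genes past the threshold numbered 272 by DESeq2 and 0 under all other settings run. The median log2 fold change of the 10 genes was −0.33 (without ND 4) to 0.14. Without ND 3, the genes without overlap were again Abcg1 and Nr1h2, where 14.0% of all tested genes were without overlap and higher and 11.7% lower. With equal column totals and all libraries kept, Abcg1 overlapped between the diets, as HFD 5 fell below ND 3. Equal totals moved the median of all tested genes to −0.064, against 0.050. Lrp1 has no value at a minimum mean of 50. The cause of these changes was not tested. No paired analysis was possible because the diets share 1 mouse number, which names different animals.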
